A study of Mus musculus with 14 samples.

Results

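Among the genes of the age comparison of hematopoietic stem cells (HSCs), 197 of 1043 carried symbols given to predicted loci, RIKEN clones or pseudogenes. The members were chosen by symbol (136 beginning with Gm and a number, 27 ending in Rik, and 34 ending in -ps with or without a number) and by measured values. They had to be above 0 in at least 1 y_Tx library, and they had to be absent from the Clu knockout table of 583 genes. The age table itself was selected on measured values, since the study describes its genes as called higher in transplanted old HSCs on these same libraries. Its own values go against that for a few genes, which are given below as lower. Every o_Tx against y_Tx value below is therefore a description of the members and not a test of them.

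Old HSCs (o_Tx, 4 libraries) came from donors over 18 months of age and young HSCs (y_Tx, 3 libraries) from donors of 2 months. The recipients of both were CD45.1 mice of 2 months given a lethal dose of irradiation, and donor HSCs were re-isolated from bone marrow 4 months later, so both groups share the irradiated young host and the transplantation. The RNA was bulk RNA of a sorted population, in which fewer cells of a type and less RNA per cell cannot be told apart. The study states in general that its sequencing used biological replicates. The labels number the libraries without saying which animals or pools each came from, so how far their spread is that between animals is not known.

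A processed pseudogene is a copy of an mRNA that was written back into the genome, usually without introns and without a protein product of its own. Housekeeping genes with abundant mRNA, such as those of ribosomal proteins and glycolytic enzymes, have left many such copies. Gm and Rik symbols are placeholders for loci without an established name and cover pseudogenes, long non-coding RNAs and some protein-coding genes. A read from a nearly identical copy can fit its parent equally well, so the values of such members depend on how reads were shared out.

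In the GENCODE mouse annotation of GRCm38, 183 of the 197 members were found by symbol. Of these, 110 were pseudogenes, 45 were non-coding RNAs and 28 were protein-coding genes. Processed pseudogenes alone made up 96, with 76 in the Gm class and 20 in the -ps class. The Rik class was of another kind, with 10 protein-coding genes, 16 non-coding RNAs and 1 pseudogene. Among the 110 pseudogenes, 107 aligned to a coding transcript, with a median identity of 98.7% and a range of 82.7% to 100%.

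The sequences below show how close some of these copies are to the gene they resemble. Each pair covers 80 bases inside the coding sequence, 5′ to 3′ on the strand of the gene, and capitals mark the bases that differ between both lines. The window was the one with the most differences in the alignment, and all sequences are GENCODE transcripts of GRCm38. Rpl13-ps6 (chr3:58987708-58987787, plus strand) is shown because it had the largest decrease, and it differed from Rpl13, a protein of the large ribosomal subunit, at 3 of 633 aligned coding bases.
Rpl13-ps6: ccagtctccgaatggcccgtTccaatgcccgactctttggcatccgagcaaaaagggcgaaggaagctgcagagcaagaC
Rpl13: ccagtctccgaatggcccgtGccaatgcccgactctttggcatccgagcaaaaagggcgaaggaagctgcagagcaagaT

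Gm7336 (chr7:51746697-51746776, plus strand) is shown because it had the largest increase. It matched Gapdh, a glycolytic enzyme, with 0 differences in 999 coding bases.
Gm7336: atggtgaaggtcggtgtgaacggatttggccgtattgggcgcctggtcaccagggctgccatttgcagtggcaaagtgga
Gapdh: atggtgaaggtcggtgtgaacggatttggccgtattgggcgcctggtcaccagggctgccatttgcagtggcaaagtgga

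Gm15387 (chr15:74094254-74094333, minus strand) is shown for its high level and large increase. It differed from Hmgb1, a chromatin protein that bends DNA, at 1 of 645 coding bases.
Gm15387: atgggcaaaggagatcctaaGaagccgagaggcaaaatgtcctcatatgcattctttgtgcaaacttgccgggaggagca
Hmgb1: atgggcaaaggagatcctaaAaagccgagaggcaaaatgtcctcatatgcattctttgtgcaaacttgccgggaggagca

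Txn-ps1 (chr1:44464142-44464221, minus strand) and Psmb6-ps2 (chr1:101385890-101385969, plus strand) are shown as copies that can be told from their parents. Txn-ps1 differed from Txn1, the redox protein thioredoxin, at 12 of 308 coding bases, and Psmb6-ps2 differed from Psmb6, a catalytic proteasome subunit, at 43 of 701.
Txn-ps1: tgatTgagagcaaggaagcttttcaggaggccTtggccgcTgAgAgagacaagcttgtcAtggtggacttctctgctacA
Txn1: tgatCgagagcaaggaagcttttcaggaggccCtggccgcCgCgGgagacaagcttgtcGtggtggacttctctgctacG
Psmb6-ps2: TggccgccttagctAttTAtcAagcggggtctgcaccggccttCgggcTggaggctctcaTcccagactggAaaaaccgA
Psmb6: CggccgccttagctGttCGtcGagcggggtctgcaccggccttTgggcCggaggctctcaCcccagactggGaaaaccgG

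Most members were higher in old than in young HSCs. By limma on log2(FPKM + 1), with an unadjusted two-sided p under 0.05 and a log2 difference over 0.5, 102 of the 197 members were higher in o_Tx and 8 were lower. By the same limits 62.5% of the whole age table were higher and 0.959% were lower. The median log2 difference was 0.61 over the members and 0.70 over the table. All 4 o_Tx libraries lay above all 3 y_Tx libraries for 90 members and below them for 13, where 49.7% and 1.63% of the table did so. Since the table was chosen for higher values in o_Tx, nothing is read from these shares about the members.

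**Figure D1:**
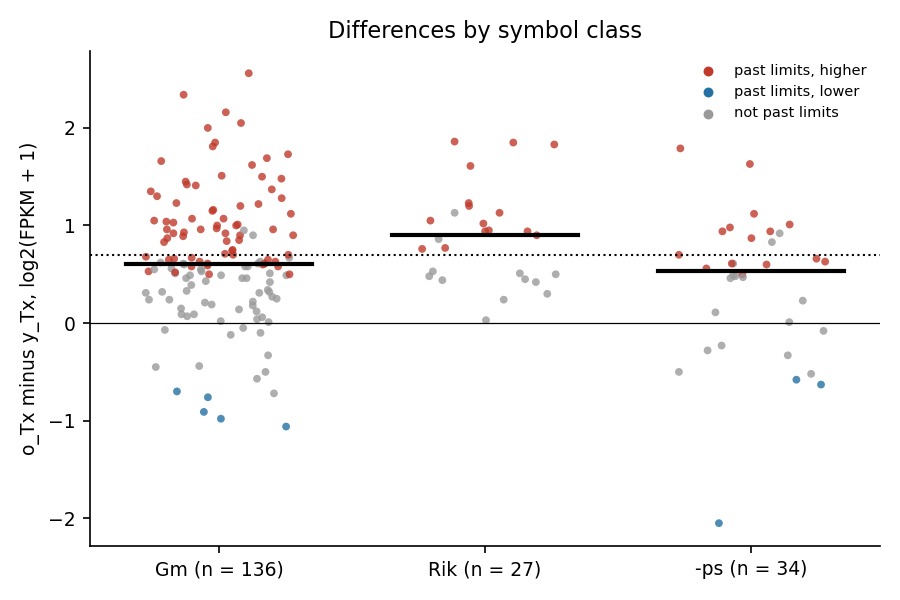
Difference between o_Tx and y_Tx for each of the 197 members on the log2(FPKM + 1) scale (vertical axis), by symbol class. Points are members, black bars are class medians (0.61 for Gm, 0.90 for Rik, 0.53 for -ps), the dotted line is the median of all 1043 genes, and members below 0 are in the Gm and -ps classes.

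The 3 classes differed in level and in the direction of single members. The median FPKM over the 7 libraries was 6.41 for the Gm class, 3.88 for the Rik class and 30.2 for the -ps class. The median log2 difference was 0.61 for Gm members, of which 72 were higher and 5 lower by the limits. It was 0.90 for Rik members, with 15 higher and 0 lower, also when the limit on the size of the difference was dropped and limma's p alone was used. It was 0.53 for -ps members, with 15 higher and 3 lower.

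The scaling of the libraries moved these values. The sum of the table was 71628 to 84123 FPKM in the o_Tx libraries and 42199 to 54607 in the y_Tx libraries. Setting these sums equal shifted the median of all genes from 0.70 to 0.19, and median-of-ratios scaling shifted it to 0.07. Nearly all genes of the table are higher in o_Tx (1006 of 1043 had a positive log2 difference, against 37 with a negative one), so both scalings remove part of that difference by construction. After them the median was 0.42 and 0.39 for the Rik class, 0.20 and 0.11 for the Gm class, and -0.03 and -0.16 for the -ps class, whose direction turned.

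The copies of Gapdh in the table were higher in old HSCs, and the table was chosen for higher values in o_Tx. All 6 members closest to Gapdh had every o_Tx library above every y_Tx library, with log2 differences of 1.48 to 2.56. Gm7336 was at 72.6, 81.6, 63.5 and 58.6 FPKM in o_Tx and at 17.0, 12.5 and 5.68 FPKM in y_Tx. Its mean was 69.1 ± 10.2 (SD, n = 4) against 11.7 ± 5.68 (SD, n = 3), a log2 difference of 2.56 (SE 0.32). The young libraries were thus all far below the old ones, and replicate 3 was the lowest of them.

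Gm5559 was at 53.0, 58.5, 54.7 and 63.6 FPKM in o_Tx and at 17.7, 13.7 and 7.02 FPKM in y_Tx, a log2 difference of 2.16 (SE 0.29). Gm2606 was at 38.0, 39.8, 34.3 and 32.3 FPKM in o_Tx and at 13.7, 9.43 and 3.69 FPKM in y_Tx, a log2 difference of 2.05 (SE 0.35). The groups did not overlap for either copy, and the order of the young libraries was the same as for Gm7336. Gm2451, Gm12070 and Gm13394 had differences of 1.85, 1.73 and 1.48. Summed over the 6 copies, the o_Tx libraries held 221 to 262 FPKM and the y_Tx libraries 28 to 78.4 FPKM. These copies share between 91.7% and 100% of their 50-base words with sequence elsewhere in the annotation, and Gapdh itself is not among the 1043 genes. Each of the 6 shares between 76.3% and 94.8% of its words with another of them, so they are not 6 separate observations. The 6 differences stayed past the limits under both scalings, at 0.87 to 1.93 and at 0.73 to 1.79.

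Copies of Hmgb1 differed among themselves. Gm15387 was at 366, 286, 282 and 276 FPKM in o_Tx and at 73.1, 66.0 and 41.9 FPKM in y_Tx, a log2 difference of 2.34 (SE 0.25). Hmgb1 was at 386, 345, 320 and 289 FPKM in o_Tx and at 218, 195 and 139 FPKM in y_Tx, a log2 difference of 0.88 (SE 0.23). The copy thus stood at 90.3% of the mean of Hmgb1 in o_Tx and at 32.7% in y_Tx, and its ratio to Hmgb1 was higher in every o_Tx library. Gm13577 and Gm10075 had differences of 1.07 and 1.04, and Gm8319 and Gm12261 had 0.51 and 0.46, which did not pass the limits. Under column-total and median-of-ratios scaling the 5 copies had differences of -0.1 to 1.67 and -0.25 to 1.52. Only Gm15387, at 1.67 and 1.52, stayed past the limits, and Hmgb1 was at 0.21 and 0.06. All of the 50-base words of Gm15387 occur in other genes, so its share of the Hmgb1 reads cannot be fixed from the sequence alone.

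**Figure D2:**
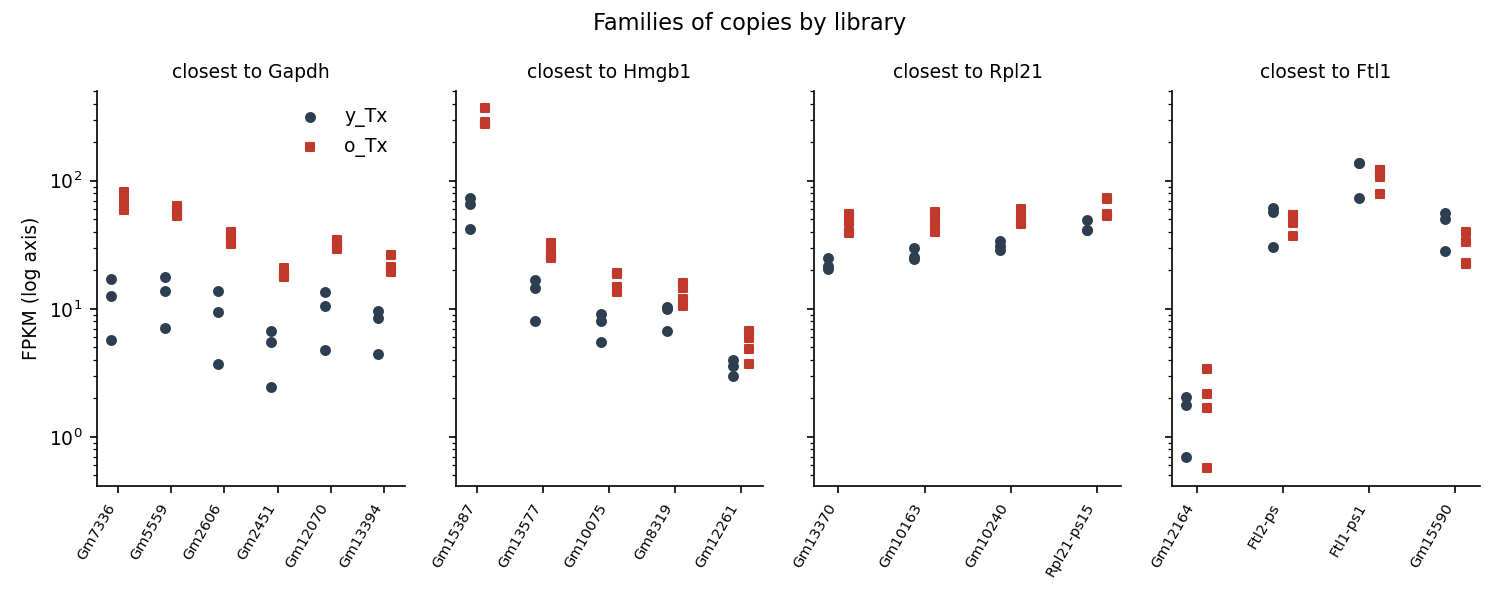
FPKM in each library (vertical axis, log scale) for the members closest to Gapdh, Hmgb1, Rpl21 and Ftl1. Circles are the 3 y_Tx libraries and squares the 4 o_Tx libraries, which lie apart for all 6 Gapdh copies and overlap for all 4 Ftl1 copies.

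Families of other genes gave smaller values. The 4 members closest to Rpl21, a protein of the large ribosomal subunit, were higher by 0.50 to 1.0. None of them passed the limits after either scaling, with differences of -0.15 to 0.35 and -0.31 to 0.20. Gm10095 is not among these 4, since its closest coding transcript was BC004004. It shares 68.2% of its words with the Rpl21 copy Gm10240 and was lower (-1.06), so not all copies with such sequence were higher. The 4 members closest to Ftl1, the light chain of the iron store ferritin, had differences of -0.57 to 0.18 and overlapping groups. After the scalings they were at -1.22 to -0.21 and at -1.37 to -0.30, and 3 of the 4 were called lower under each. Gm15590 had the lowest of these at 33.0, 39.7, 22.6 and 22.2 FPKM in o_Tx and 55.7, 50.6 and 28 FPKM in y_Tx. Copies of Hmgn2 (0.24 and 0.06), a nucleosome-binding protein, and of Kpna2 (0.09 and 0.04), a nuclear import receptor, did not pass the limits. Their directions turned under both scalings, to -0.60 to -0.43 and -0.76 to -0.58 for Hmgn2 copies and to -0.51 to -0.43 and -0.63 to -0.55 for Kpna2 copies, and all of them were called lower under median-of-ratios scaling.

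The members lower in old HSCs were mostly copies of ribosomal protein genes. Of the 13 members with every o_Tx library below every y_Tx library, 11 were annotated pseudogenes and 8 were closest to a ribosomal protein gene. Rpl13-ps6 was at 21.2, 27.8, 20.8 and 20.8 FPKM in o_Tx and at 94.6, 94.9 and 99.0 FPKM in y_Tx. Its mean was 22.7 ± 3.45 (SD, n = 4) against 96.2 ± 2.45 (SD, n = 3), a log2 difference of -2.05 (SE 0.21). The groups were far apart and the young libraries nearly equal.

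Gm4294, a copy of Rpl15 of the large subunit, was at 25.9, 30.4, 31.4 and 26.3 FPKM in o_Tx and at 57.9, 49.2 and 55.5 FPKM in y_Tx, a log2 difference of -0.91 (SE 0.20). Gm10095, whose closest coding transcript was BC004004, was at 12.7, 14.7, 14.8 and 14.3 FPKM in o_Tx and at 30.3, 26.9 and 34.6 FPKM in y_Tx, a log2 difference of -1.06 (SE 0.20). In both the young libraries were all above the old ones. Gm10095 was not counted as closest to a ribosomal protein gene, though it shares 68.2% of its words with Gm10240, a copy of Rpl21.

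Rpl10-ps6 (-0.63, SE 0.21), Gm10132 (-0.76, SE 0.22), a copy of Rpl23a, and Srsf3-ps (-0.58, SE 0.20), named for a splicing factor, also passed the limits, the last not without y_Tx replicate 2 (-0.52). Rpl35a-ps3 and Rpl35a-ps6 (-0.52 and -0.50) lay apart without passing them. Replicate 3 was the highest young library for 11 of the 13, whereas it was the lowest for 106 of all 197 members and for 607 of all 1043 genes. All 13 passed the limits as lower under both scalings, with medians of -1.28 and -1.43.

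**Figure D3:**
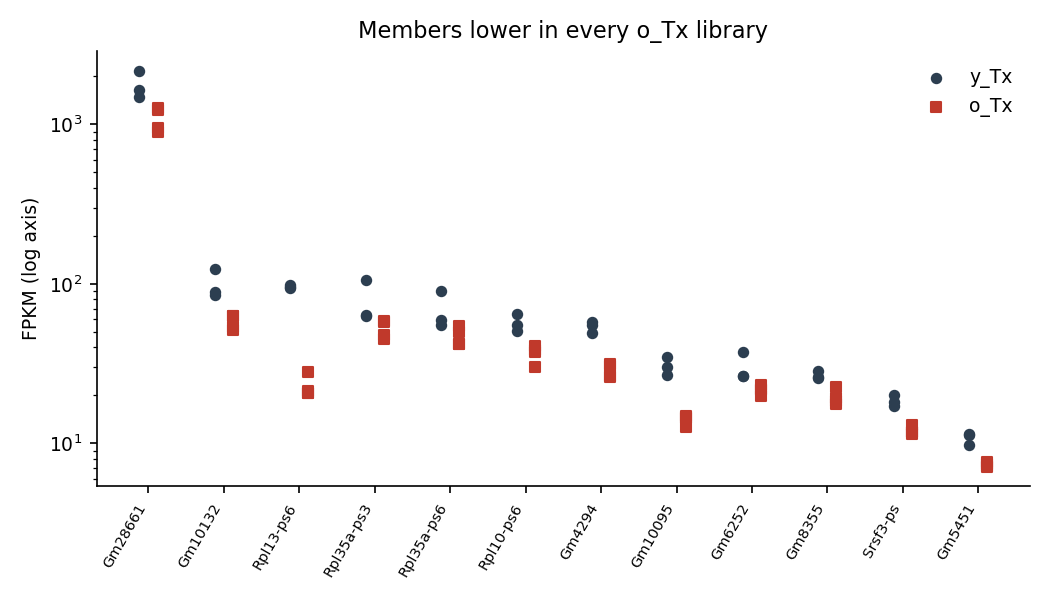
FPKM in each library (vertical axis, log scale) for 12 of the 13 members with every o_Tx library below every y_Tx library, in order of the y_Tx mean. Circles are y_Tx and squares o_Tx libraries, and Rpl13-ps6 shows the widest gap, with 94.6 to 99.0 FPKM against 20.8 to 27.8 FPKM.

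Gm28661 was the member with the highest level and was also lower. It was at 893, 944, 1235 and 1277 FPKM in o_Tx and at 1479, 1644 and 2178 FPKM in y_Tx, a log2 difference of -0.70 (SE 0.24). Without y_Tx replicate 3 the difference was -0.54 and no longer passed the limits. It is an unprocessed pseudogene on chromosome 1 that aligned at 100% identity to mt-Co2, the mitochondrial gene of a cytochrome c oxidase subunit. The difference of mt-Co2 was -0.69 (SE 0.24), and the copy stood at 98.9% of mt-Co2 in o_Tx and 99.2% in y_Tx. The values of both genes thus followed each other in every library, and their reads cannot be told apart by sequence.

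The ribosomal protein genes of the table, taken by symbol, are the related list. It includes Rpl6l (-0.07), Rpl7l1 (0.65) and Rps4l (1.24), whose symbols mark loci like such a gene. Of its 10 genes 7 were higher and 0 lower by the limits, with 0 lower also by limma's p alone, and the median log2 difference was 0.70. Under each scaling 1 was higher and 1 lower, with medians of 0.03 and -0.12. Among the 24 members closest to a ribosomal protein gene 8 (33.3%) were higher and 5 (20.8%) lower, with a median of 0.02. Of all 1043 genes, 62.5% were higher and 0.959% lower. Under the scalings 0 of the 24 were higher, and 12 and 13 were lower, with medians of -0.58 and -0.72. Of all 1043 genes, 151 and 124 were then higher, and 40 and 54 lower. Gm10095 (-1.06) is not among the 24, since its closest coding transcript was BC004004. Rpl13 had a difference of 0.74 (SE 0.20), Rpl15 of 0.93 (SE 0.21) and Rpl17 of 1.65 (SE 0.25). After the scalings Rpl13 was at 0.07 and -0.09, so its direction depends on them, while Rpl17 was at 0.98 and 0.83. The genes of this list were chosen as higher in these libraries, and their direction is no independent evidence.

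Set beside the coding gene they resemble most, the copies usually had the lower log2 difference, sign included. A lower value was not always a smaller one, as for Rpl13-ps6 (-2.05 beside 0.74 for Rpl13). Such a coding gene was in the table for 27 members, covering 20 genes. Genes and copies both come from a table chosen for higher values in o_Tx. The log2 difference of the copy was below that of the gene in 21 pairs and above it in 6, and the signs were opposite in 6. The ratio of copy to gene was lower in every o_Tx library than in every y_Tx library for 14 pairs, higher for 3 and overlapping for 10. A ratio within a library does not depend on the scaling of that library. Rpl13-ps6 stood at 5.31% of Rpl13 in y_Tx and at 0.749% in o_Tx. Gm4294 stood at 15.6% of Rpl15 in y_Tx and at 4.28% in o_Tx.

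Rpl17-ps3 was at 70.8, 90.4, 101 and 131 FPKM in o_Tx and at 96.6, 119 and 153 FPKM in y_Tx, with overlapping groups. It stood at 73.6% of Rpl17 in y_Tx and at 18.5% in o_Tx. Rpl7a-ps11 stood at 24.0% of Rpl7a in y_Tx and at 13.7% in o_Tx. These pairs share most of their sequence, and what the assignment of shared reads adds to the ratios was not tested.

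**Figure D4:**
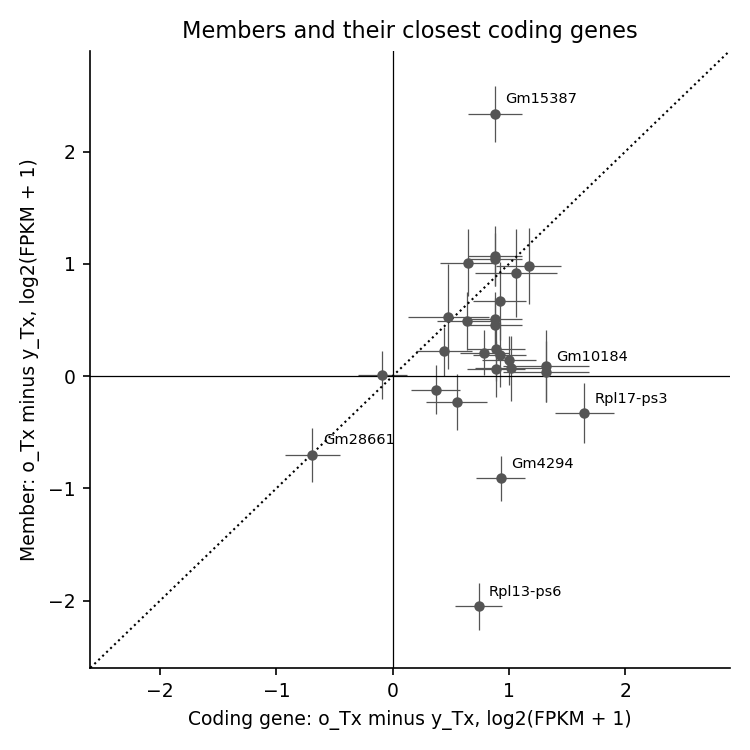
Log2 difference between o_Tx and y_Tx of 27 members (vertical axis) against that of their closest coding gene (horizontal axis), both on the log2(FPKM + 1) scale with bars of 1 SE. The dotted line marks equal differences, and 21 of the 27 pairs lie below it.

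Members of the -ps class whose parent by symbol was in the table numbered 11. Ubb-ps, named for the ubiquitin gene Ubb, had the highest level of the class at 1362, 1354, 1042 and 775 FPKM in o_Tx and 1228, 911 and 454 FPKM in y_Tx. Its groups overlapped and its difference was 0.47 (SE 0.35), where Ubb had 1.02 (SE 0.31), and its direction turned under both scalings. With the replicate number as a block it was 0.64 and passed the limits. Gstm2-ps1, named for a glutathione transferase, had 0.98 (SE 0.34) and Gstm2 1.14 (SE 0.24), but 0.58 without y_Tx replicate 3, when it no longer passed. By sequence the coding gene closest to Gstm2-ps1 was Gstm1 (97.9% identity), which had 1.17 (SE 0.28). Tdg-ps2, named for a DNA glycosylase, had 0.94 (SE 0.21) and Tdg 0.32 (SE 0.22). Ncoa4-ps had 0.70 (SE 0.31), with overlapping groups, and Ncoa4, a receptor for ferritin breakdown, had 0.01 (SE 0.22). The call of Ncoa4-ps was lost without any 1 of o_Tx replicates 1, 2 and 3 or y_Tx replicates 2 and 3, at 0.44 to 0.78. Trp53-ps had 1.01 (SE 0.30) and its parent 0.65 (SE 0.24). Ap2m1-ps (0.92, SE 0.47) and Capza1-ps1 (0.48, SE 0.36) did not pass the limits, but did at 1.13 and 0.71 with the replicate block.

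Some copies can be told from their parents by sequence. Txn-ps1 was at 41.3, 35.3, 42.7 and 51.0 FPKM in o_Tx and at 10.8, 12 and 11.6 FPKM in y_Tx, a log2 difference of 1.79 (SE 0.21). Psmb6-ps2 was at 14.6, 16.1, 13.6 and 9.45 FPKM in o_Tx and at 4.57, 3.13 and 3.22 FPKM in y_Tx, a log2 difference of 1.63 (SE 0.24). Atp5k-ps2, a copy of a subunit gene of ATP synthase, was at 50.8, 61.5, 63.6 and 53.8 FPKM in o_Tx and at 22.4, 22.5 and 33.9 FPKM in y_Tx, a log2 difference of 1.12 (SE 0.23). All 3 had every old library above every young one, and 9.6%, 3.0% and 1.2% of their 50-base words recur in another gene. Under the scalings Atp5k-ps2 was at 0.47 and 0.32 and no longer passed the limits.

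The other abundant members ranged from clear increases to overlapping groups. Mpc1-ps, a copy of a mitochondrial pyruvate carrier gene, was at 336, 279, 273 and 231 FPKM in o_Tx and at 184, 144 and 131 FPKM in y_Tx, a log2 difference of 0.87 (SE 0.23). Gm9800, a copy of the prothymosin gene Ptma, had 0.50 (SE 0.20), which fell short of the limits at 0.45 without o_Tx replicate 2 or y_Tx replicate 3 and at 0.48 without y_Tx replicate 2, and Cox5b-ps had 0.66 (SE 0.20). Gm2000, a copy of Rpl35 (0.27, SE 0.22), Gm11223, a copy of the tubulin-binding Stmn1 (0.12, SE 0.24), and Ftl1-ps1 (-0.08, SE 0.28) had overlapping groups and did not pass the limits. Under column-total and median-of-ratios scaling Mpc1-ps was at 0.20 and 0.05 and no longer passed the limits. The directions of Gm9800, Gm2000 and Gm11223 turned under both scalings, and that of Cox5b-ps under median-of-ratios scaling.

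The non-coding RNAs included members with large increases, some of them from young values near 0. Gm35021, on chromosome 8, was at 0.767, 3.62, 5.46 and 5.0 FPKM in o_Tx and at 0, 0.152 and 0.0267 FPKM in y_Tx, a log2 difference of 2.0 (SE 0.40). 2410003L11Rik, on chromosome 11, was at 1.52, 5.52, 2.33 and 3.98 FPKM in o_Tx and at 0, 0.412 and 0 FPKM in y_Tx, a log2 difference of 1.86 (SE 0.33). 1700006J14Rik, antisense RNA whose exons overlap those of Hmga2 on chromosome 10, was at 30.7, 20.4, 23.3 and 17.2 FPKM in o_Tx and at 4.17, 6.48 and 6.09 FPKM in y_Tx, a log2 difference of 1.85 (SE 0.25). The old libraries were all above the young ones in each. The library kit does not mark strand, so reads of 1700006J14Rik and of Hmga2 cannot be separated where they overlap. Of all 45 non-coding members 26 (57.8%, where 62.5% of the table were higher) were higher and 0 lower, with 0 lower also by limma's p alone. Under the scalings 13 and 10 were higher and 0 lower.

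3300005D01Rik, a lincRNA on chromosome 17, had a difference of 1.61 (SE 0.38). A530040E14Rik (1.20, SE 0.20) and C130026I21Rik (1.23, SE 0.25) overlap in exons on opposite strands of chromosome 1, and the 50-base words of both are shared with other genes at 44.5% and 43.0%. Among the abundant Rik members, 2610318N02Rik was at 49.5, 41.9, 40.0 and 43.5 FPKM in o_Tx and at 29.5, 23.8 and 15.3 FPKM in y_Tx (0.95, SE 0.25). 2310061I04Rik (0.94, SE 0.29), 1700020L24Rik (0.76, SE 0.24) and 9030025P20Rik (0.90, SE 0.23) also had groups that did not overlap. None of these 4 passed the limits under either scaling, at 0.30 and 0.15 for 2610318N02Rik, 0.31 and 0.16 for 2310061I04Rik, 0.12 and -0.02 for 1700020L24Rik and 0.39 and 0.27 for 9030025P20Rik. 3110001I22Rik had 1.83 (SE 0.51) with overlapping groups.

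Few members lay near another gene of the table. An age table gene lay within 10000 bases of 10 members. Gm19810, a processed pseudogene closest to Rps21 (95.2% identity), lay 497 bases from Elane, the gene of neutrophil elastase, on the same strand. It was at 35.1, 47.4, 40.7 and 40.6 FPKM in o_Tx and at 15.5, 19.0 and 24.8 FPKM in y_Tx, with differences of 1.03 (SE 0.23) for the member and 1.04 (SE 0.23) for Elane. Gm9889 lay 78 bases from S1pr1, a receptor for sphingosine 1-phosphate, on the other strand, with 0.60 (SE 0.26) and 0.52 (SE 0.25).

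The members were also grouped by shared sequence. Of 59 members sharing under 10% of their 50-base words with other genes 42 were higher and 0 lower, with 0 lower also by limma's p alone, and the median log2 difference was 0.90. The higher members were 71.2% of this group, beside 67.4% of the 619 other table genes that share as little, of which 0 were lower. Of 89 members sharing 10% to 90%, 40 (44.9%) were higher and 4 (4.49%) lower (median 0.55). Of the 204 other table genes in this range 59.3% were higher and 0.49% lower. Of 35 sharing 90% or more, 13 (37.1%) were higher and 3 (8.57%) lower (median 0.49). Of the 12 other table genes that share as much, 6 were higher and 1 (8.33%) was lower. Zfp133-ps, Gm15201 and 1700001L05Rik, which share none, had 0.61 (SE 0.25), 1.37 (SE 0.41) and 0.30 (SE 0.20). Zfp133-ps passed the limits, but not with the replicate block (0.59) nor without any 1 of o_Tx replicates 2, 3 and 4 or y_Tx replicates 2 and 3 (0.48 to 0.63). After both scalings the medians were 0.47 and 0.39 for the first group, with 20 and 18 higher and 1 and 1 lower. They were -0.15 and -0.31 for the last, with 7 and 7 higher and 12 and 14 lower. The part of read assignment in this was not tested.

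**Figure D5:**
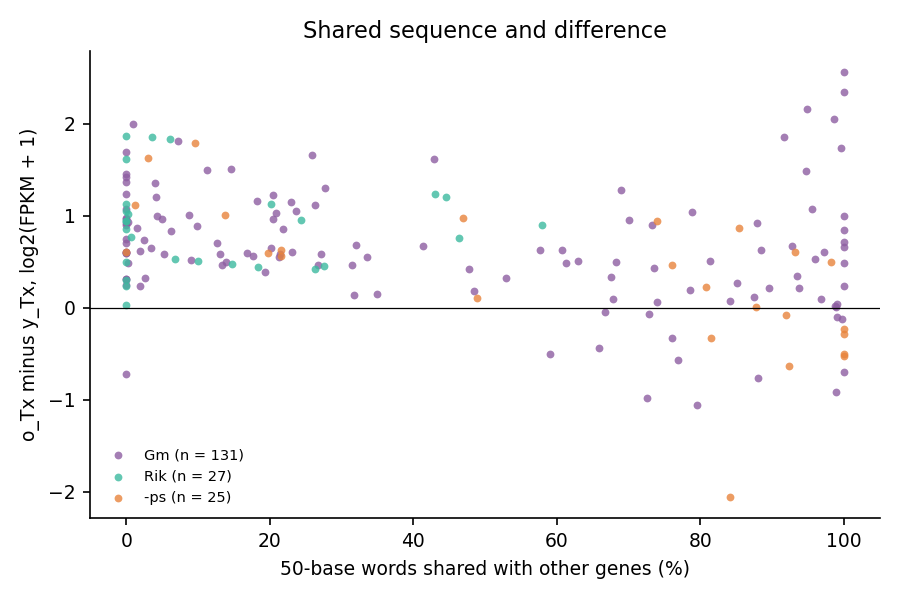
Log2 difference between o_Tx and y_Tx on the log2(FPKM + 1) scale (vertical axis) against the percentage of 50-base words that a member's longest transcript shares with other genes (horizontal axis), for the 183 members with a transcript. Colors are symbol classes, and nearly all members below 0 share 10% or more of their words.

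Markers of several other blood cells in the table had higher sums in o_Tx. The table was chosen for higher values in o_Tx, and the sum of all its genes was higher there too. Nothing is therefore read from these sums about the cells present. Of the neutrophil list 4 of 10 genes were in the table, with a summed level of 7603 to 10841 FPKM in o_Tx and 3931 to 4844 FPKM in y_Tx. Of the mast cell and basophil list 7 of 10 were in it, at 488 to 770 FPKM and 226 to 356 FPKM, and of the erythroid list 5 of 11, at 1527 to 2418 FPKM and 809 to 1120 FPKM. Of the megakaryocyte list 4 of 6 were in it, at 269 to 498 FPKM and 175 to 241 FPKM. The sums of the monocyte and macrophage list, with 3 of 6 in it, overlapped at 264 to 427 FPKM and 168 to 289 FPKM, and 0 of 8 lymphoid markers were in it. Of 12 HSC markers only Slamf1 and Procr were in the table, at a summed 11.8 to 20.7 FPKM and 4.42 to 11.5 FPKM. The other markers are not among the 1043 genes, so the sort could not be checked on them, and the part of such cells in the values of the members was not tested.

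Near the edge of the choice, 7 genes with these symbols were at 0 in all y_Tx libraries and so were left out. 1700048O20Rik was the highest of them, at 19.7, 17.0, 28 and 28.5 FPKM in o_Tx. Just inside, C230038L03Rik was above 0 in 1 young library, at 0.0321 FPKM, and at 0.451, 0.368, 0.970 and 0.0676 FPKM in o_Tx. A further 7 genes were left out because they are in the Clu knockout table. Of the 197 members, 172 were above 0 in all 7 libraries.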

How the data were processed

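Bulk RNA of re-isolated HSCs was sequenced with an unstranded full-length kit. Per the study's methods, the authors used TrimGalore for trimming, Hisat2 for alignment (mm10) and FeatureCounts for counting. The deposited values are taken as FPKM. No unit is named in their headers, and they could also be TPM. The annotation and the treatment of reads with several matches are not given in the sources used here. Depth is unknown, so no counting interval is given.

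Here, log2(FPKM + 1) was fitted with limma 3.58.1 (R 4.3.3) on 4 o_Tx and 3 y_Tx libraries over all 1043 genes. Limits were an unadjusted p under 0.05 and a log2 difference over 0.5. In simulated data with 200 changed genes (log2 change of 2) among 1043, 189 were recovered and 32 of 843 unchanged genes were called. Gene models and transcripts were those of GENCODE mouse release 21. Shared words are 50-base stretches of the longest transcript, on either strand, found in transcripts of other genes. The closest coding transcript was the best blastn 2.17.0 hit with at least 80% identity over at least 50% of the length. A total of 14 members had no transcript there.

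Named members were, per class, the 5 with the highest level, the 5 largest increases and 3 largest decreases whose groups lay apart and whose higher mean reached 1 FPKM, the extremes of shared words, and -ps members with their parent in the table. Of the largest decreases, 1 is not reported here. Further members were named after their values were seen, as copies of one gene, neighbors or edge cases. Members and lists were chosen with earlier results of these data known. Libraries with the same number deviated together (r = 0.405, 0.163 and 0.161 over genes, where o_Tx replicate 4 and y_Tx replicate 3 had 0.191), so a fit with the number as a block was run. It left o_Tx replicate 4 without a partner. Alternatives were another pseudocount, a filter on low values, 2 scalings, adjusted p-values, non-overlap, the replicate block and leaving out each library.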

Additional observations from a re-analysis of the deposited data

Results flagged for a closer look

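Both results here were picked out because 1 of the 4 o_Tx libraries lay far from the other 3, which chance gives in about 1 of 20 groups. Gm15387 was at 366 FPKM in o_Tx replicate 1 and at 276 to 286 FPKM in the other 3. Rpl13-ps6 was at 27.8 FPKM in o_Tx replicate 2 and at 20.8 to 21.2 FPKM in the other 3. In both the 4 o_Tx libraries stayed apart from the y_Tx libraries.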

How the results depend on the processing

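Column-total and median-of-ratios scaling changed the counts most. Members called higher numbered 42 and 37 under them instead of 102, and members called lower 31 and 38 instead of 8. Over all 1043 genes, 151 and 124 were called higher instead of 652, and 40 and 54 lower instead of 10. By class, 29 and 25 Gm, 9 and 8 Rik and 4 and 4 -ps members were called higher, and 21 and 27 Gm, 0 and 0 Rik and 10 and 11 -ps members lower. The median log2 difference became 0.20 and 0.11 over the members, 0.20 and 0.11 for Gm, 0.42 and 0.39 for Rik, and -0.03 and -0.16 for -ps. Both scalings are computed on a table nearly all of whose genes are higher in o_Tx, so they lower the differences by construction. Among members sharing under 10% of words, which are fewer, 42 were called higher and 0 lower (29 Gm, 9 Rik, 4 -ps), with medians of 0.90, 0.87 for Gm and 1.37 for -ps. With a pseudocount of 0.1 the medians were 0.94, 0.93 for Gm and 1.44 for Rik, since low values then differ more. Groups that did not overlap gave 13 lower members.

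Under median-of-ratios and column-total scaling, directions turned for Capza1-ps1 (-0.28, -0.14), Gm11223 (-0.70, -0.55), Gm2000 (-0.56, -0.40), Gm9800 (-0.32, -0.16) and Ubb-ps (-0.36, -0.20), and under the first alone for 1700020L24Rik (-0.02) and Cox5b-ps (-0.15). Both scalings also took the call of Gstm2-ps1 (0.19, 0.34), Ncoa4-ps (0.15, 0.25) and Zfp133-ps (0.30, 0.36), and the first alone that of A530040E14Rik (0.52) and Gm15201 (0.96). Leaving out each library gave -0.38 to 0.07 for Ftl1-ps1 and -0.02 to 0.24 for Gm11223. With the replicate block, in which the numbers pair the samples, 120 members were called higher and 11 lower, 95 of the 102 and all 8 among them, and Ftl1-ps1 turned to 0.06. The block gave or took the call of Ap2m1-ps, Capza1-ps1, Ubb-ps and Zfp133-ps and of no other named member. Leaving out each library gave 80 to 102 higher and 8 to 12 lower members, and without y_Tx replicate 3 the higher genes of the whole table fell from 652 to 405. Adjusted p-values left 74 higher and 8 lower. Depth is unknown, so low members are limited by an error that cannot be stated.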
